A study of Mus musculus with 6 samples.

Results

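The 40 genes described here make the machinery of DNA replication (17 genes, the S members) and of mitosis (23 genes, the G2/M members), and all 40 were found by symbol among the 52081 gene identifiers that the 6 libraries share. They were measured by 3′ single-cell RNA sequencing of the callus of a femoral fracture at 14 days post-fracture (dpf). The study's methods give the mice as male and 12 weeks old. The control group has 3 libraries with the genotype label wt, which the study's methods give as Piezo1 f/f without Cre, and the knockout group has 3 libraries with the genotype label Col2CreERT; Piezo3-/-, which the methods and the series title give as a loss of Piezo1. Both groups carried floxed Piezo1 and received tamoxifen on 5 days, so they differ by the Cre, whose Col2a1 promoter is known to be active in the cartilage lineage. The labels put each callus in a suspension of its own, the clusters held the cartilage, bone, vessel, marrow and blood cells of a callus by their markers, and no more than 36 barcodes were shared between any pair of libraries.

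Piezo1 itself stood at 62.3, 56.4 and 59.4 CPM (UMIs scaled to a common library total) in control libraries 1 to 3 and at 95.5, 48.2 and 45.4 in knockout libraries 1 to 3. In chondrocyte-like cells the values were 67.1, 45.4 and 49.7 against 131, 50.6 and 47.2, so Piezo1 was not lower in every knockout library. A 3′ count does not tell a transcript that lost its floxed exons from a whole one, so this does not check the deletion. Knockout library 3 held Xist, an RNA made from the inactive X chromosome of females, at 578 CPM and the Y-linked gene Ddx3y at 0, against at most 0.17 and at least 52.3 CPM in the other libraries. Its transcripts therefore go against the male sex that the methods give, and several of the genotype differences are also given without this library. In all, 41652 cells passed the filters on cells and doublets out of 46944 barcodes, and the total per library ranged from 57626530 to 103784364 UMIs (unique molecular identifiers, each 1 captured mRNA).

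A cell prepares to divide by licensing its replication origins: Cdc6 and Cdt1 load the Mcm2 to Mcm7 helicase on DNA, geminin (Gmnn) holds Cdt1 back once replication has begun, and cyclin E starts S phase. Mitosis is then driven by CDK1 with cyclins A and B, policed by the spindle checkpoint, and ended when the anaphase-promoting complex (APC/C) has cyclin B destroyed. In a healing fracture, proliferating chondrocytes leave the cycle as they enlarge into hypertrophic chondrocytes (HTCs), while osteoclasts form by fusion of myeloid precursors and most blood cells arise from dividing marrow progenitors.

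The promoters of these genes carry short motifs that bear on when in the cycle they are read. E2F factors bind GC-rich sites in many S-phase promoters, and the CHR (cell cycle genes homology region) together with CCAAT boxes is typical of promoters that are active in G2 and mitosis. Promoter windows from 250 bases before to 50 bases after the RefSeq start site (GRCm38.p6) were at hand for 34 members, not for Tpx2, Mcm4, Ccna2, Aurkb, Gmnn and Ccne2. The windows of the markers of cycling cells used below (Mki67, Top2a), of the central mitotic kinase (Cdk1), of an S member with several E2F motifs (Mcm6) and of the S member whose expression was most like that of the G2/M members (Pclaf) are shown with their CHR, CCAAT and E2F motifs in capitals on either strand.
Mki67, chr7:135716330-135716629, minus strand: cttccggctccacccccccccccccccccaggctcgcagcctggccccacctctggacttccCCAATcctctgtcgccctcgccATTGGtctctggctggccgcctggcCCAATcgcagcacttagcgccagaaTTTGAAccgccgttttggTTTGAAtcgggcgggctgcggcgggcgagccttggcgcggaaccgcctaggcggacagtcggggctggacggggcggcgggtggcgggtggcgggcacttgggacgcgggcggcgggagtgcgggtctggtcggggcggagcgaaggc
Top2a, chr11:99024140-99024439, minus strand: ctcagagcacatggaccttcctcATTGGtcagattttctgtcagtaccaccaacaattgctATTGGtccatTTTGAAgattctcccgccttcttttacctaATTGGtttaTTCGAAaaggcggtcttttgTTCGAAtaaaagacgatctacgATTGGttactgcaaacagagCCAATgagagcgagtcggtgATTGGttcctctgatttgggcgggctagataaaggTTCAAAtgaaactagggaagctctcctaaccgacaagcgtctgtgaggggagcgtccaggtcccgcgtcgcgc
Cdk1, chr10:69352863-69353162, minus strand: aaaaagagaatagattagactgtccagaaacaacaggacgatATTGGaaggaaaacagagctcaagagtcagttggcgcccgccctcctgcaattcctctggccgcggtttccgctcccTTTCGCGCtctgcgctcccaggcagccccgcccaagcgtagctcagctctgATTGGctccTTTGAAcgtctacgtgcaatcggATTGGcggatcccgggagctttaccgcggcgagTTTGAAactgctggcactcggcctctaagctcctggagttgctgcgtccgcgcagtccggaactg
Mcm6, chr1:128359656-128359955, minus strand: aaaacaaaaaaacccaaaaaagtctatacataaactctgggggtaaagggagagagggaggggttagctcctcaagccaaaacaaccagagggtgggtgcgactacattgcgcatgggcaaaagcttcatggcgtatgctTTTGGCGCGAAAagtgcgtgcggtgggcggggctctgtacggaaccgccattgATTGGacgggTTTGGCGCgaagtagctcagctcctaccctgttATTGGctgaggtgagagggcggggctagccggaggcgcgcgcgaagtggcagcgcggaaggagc
Pclaf, chr9:65890073-65890372, plus strand: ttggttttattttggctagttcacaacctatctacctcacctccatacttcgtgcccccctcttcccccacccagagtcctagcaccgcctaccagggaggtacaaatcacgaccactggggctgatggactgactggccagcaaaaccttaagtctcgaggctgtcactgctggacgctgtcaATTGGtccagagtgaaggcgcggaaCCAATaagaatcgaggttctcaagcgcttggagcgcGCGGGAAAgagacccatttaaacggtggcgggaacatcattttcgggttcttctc

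A CHR (TTTGAA or TTCGAA, both strands) was in the windows of 16 of 20 G2/M members and of 2 of 14 S members (Mcm2 and Mcm7), against 19.4% of all 27025 promoters. The 4 G2/M members without this motif in the window were Birc5, Cenpe, Ccnb1 and Nusap1. A CCAAT box (CCAAT, both strands) was in 18 of 20 G2/M windows and 10 of 14 S windows, against 37.9% of all promoters, and CHR and CCAAT stood together in 16 G2/M and 2 S windows, against 7.7%. E2F motifs (TTTCCCGC, TTTCGCGC, TTTGCCGC or TTTGGCGC, both strands) were in 7 of 14 S windows (Pclaf, Mcm3, Mcm5, Mcm6, Mcm7, Cdc6 and Cdt1) and in 1 of 20 G2/M windows (Cdk1), against 2.32% of all promoters. The motifs are letter matches, some of which overlap, as 2 of the E2F matches in the Mcm6 window do, and a match is not evidence of a bound factor.

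**Figure D1:**
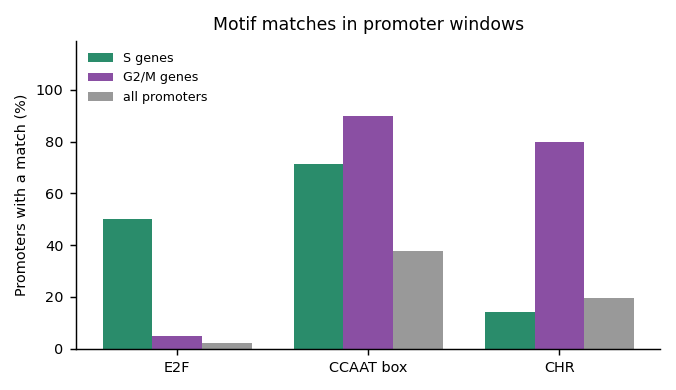
Percent of promoter windows that hold each motif, for 14 S members, 20 G2/M members and all 27025 RefSeq promoters. The CHR bar is high in the G2/M members (80%) and low in the S members (14.3%), and the E2F bar is the reverse (5% and 50%).

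The genes of DNA synthesis were led by Pcna, the sliding clamp of the replication fork, which lies at chr2:132249162-132253314 (GRCm38). Pcna was the member with the highest mean over all cells, at 78.2, 144 and 117 CPM in control and 84.4, 83.3 and 84 CPM in knockout libraries, and it was found in 41.8% of cells. Pclaf, which binds PCNA at the fork, was at 34.6, 72.9 and 70.6 CPM in control and 41, 95.3 and 61.8 CPM in knockout libraries. Replicate 1 was the lowest of its group for Pclaf in both groups.

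Of the licensing genes, the helicase subunits Mcm6 and Mcm7 had the highest means. Mcm6 was at 40, 38.3 and 37 CPM in control and 30.2, 47.9 and 41.5 CPM in knockout libraries. Mcm7 was at 28.7, 30.7 and 38.7 against 28.7, 43.1 and 30.5 CPM. For both genes the groups overlapped.

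Cdk1, the kinase that starts mitosis, was at 18.4, 42.1 and 47.2 CPM in control and 24.9, 45.2 and 41.9 CPM in knockout libraries. Its partner Ccna2 (cyclin A2) was at 15.1, 25.3 and 26.9 against 20.7, 37.2 and 24.8 CPM. In each group the library of replicate 1 was the lowest for both genes. Top2a, the topoisomerase that untangles sister chromosomes (chr11:98992943-99024189), was at 72.2, 96.7 and 93.8 CPM in control and 88.1, 122 and 70.5 CPM in knockout libraries. Mki67, which coats mitotic chromosomes and is the standard marker of proliferation (chr7:135689784-135716361), was at 73.7, 94.1 and 69.7 against 75.3, 92.1 and 58.4 CPM. For both genes the groups overlapped throughout.

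Ube2c, the ubiquitin-conjugating enzyme of the APC/C, was at 30, 71.3 and 98.7 CPM in control and 37.4, 127 and 75.5 CPM in knockout libraries. Cdc20, the APC/C activator on which the checkpoint acts, was at 9.03, 18.5 and 25.1 against 12.7, 31 and 22.5 CPM. The replicate 1 libraries were the lowest 2 of the 6 for both. Birc5 (survivin, a subunit of the Aurora B complex) was at 22.5, 59 and 70.4 CPM in control and 26.8, 91.5 and 67.3 CPM in knockout libraries. Prc1, which bundles the microtubules of the spindle midzone, was at 35.3, 49.4 and 49.1 against 40.2, 55 and 42.6 CPM. The control 1 and knockout 1 libraries were the lowest 2 of the 6 for 26 of the 40 members, 16 of them G2/M and 10 S members. These 2 libraries were also counted with another version of Cell Ranger (6.1.1, against 6.1.2), held the fewest barcodes (4603 and 3482, against at least 8266) and had the lowest median UMIs per barcode; the part of each in the low values was not tested.

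Cells were called cycling where Top2a and Mki67 together gave at least 2 UMIs, among the 31998 cells of at least 2000 UMIs. By this rule 4227 cells were cycling, and the share per library was 13.2%, 9.43% and 12.6% in control and 15%, 17.4% and 12.3% in knockout libraries. As a background, mature neutrophil-like cells (led by Il1b and Cxcr2), which are not known to divide, had a mean share of 0.771% (range 0 to 2.42%, n = 6 libraries), although their median depth over all cells was only 1657 UMIs. Since a deeper cell reaches 2 UMIs more easily, every share was taken a second time with cells drawn down to 2000 UMIs each, where these neutrophil-like cells had 0.377%.

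The other 38 members were set against this call, separately in each library. The S members were 6.29-fold higher (median of 17) and the other G2/M members 34.1-fold higher (median of 21) in cycling than in other cells. Pcna had the lowest ratio, 3.08 (range over 6 libraries 2.79 to 3.66), and Hmmr, a spindle-assembly factor, the highest, 92.2 (35.9 to 125). Pclaf, at 54.4 (24.3 to 94.3), stood apart from the other S members, of which Rrm2, Uhrf1 and Mcm5 alone also passed a ratio of 10. Cenpa, the histone that marks centromeres, was the single G2/M member under 10, at 9.35 (8.58 to 11.3). Cycling cells held 43.8% of all Pcna UMIs and 94.3% of all Hmmr UMIs counted in cells of at least 2000 UMIs. For the licensing genes that percentage ran from 49.7% to 71.7% and for the CDK1 group from 80% to 91.7%. These ratios describe genes that rise together in the same cells and are given without a test.

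**Figure D2:**
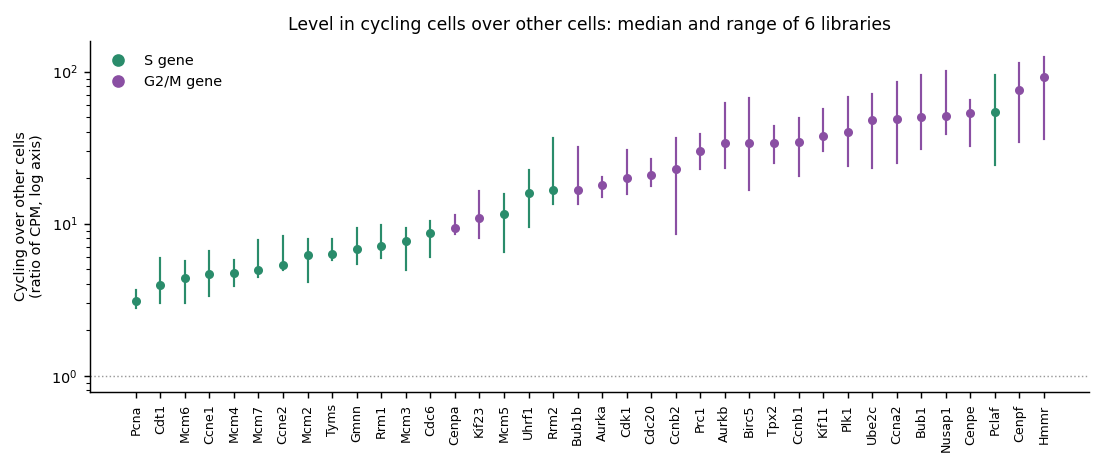
Ratio of the CPM in cycling cells to that in other cells for the 38 members other than Top2a and Mki67 (points are medians and lines the range over 6 libraries, on a log axis). Most S members lie between 3 and 10 and nearly all G2/M members above 10, with Pclaf among the G2/M members and Cenpa among the S members.

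Across the classes of cells held by at least 4 libraries, cycling cells were most frequent among progenitor-like cells of the marrow (HSPC, marked by Elane, Mpo and Kit), with 77.6% ± 7.17 (SD, n = 4 libraries). Osteoclast-like cells followed with 36.9% ± 8.77 (n = 6) and a cluster of stromal cells led by Gdpd2 with 22.1% ± 8.5 (n = 6). The Gdpd2-led cluster had 3 detected markers of marrow stroma, but 0 among its 10 leading genes, which held the osteoclast marker Mmp9, and so is called by its leading gene. Chondrocyte-like cells had 6.41% ± 2.67 and hypertrophic chondrocyte-like cells 3.58% ± 2.93 (n = 6 each), the lowest of these classes.

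The hypertrophic chondrocyte-like class was made of 2 clusters. The Ihh-led cluster (653 cells) had 3 of its class's markers among its 10 leading genes, and the Chil1-led cluster (531 cells), led also by Mmp3, Lcn2 and Saa3, had 4 detected markers but 0 among its leading genes. The Ihh-led cluster gave 450 of its cells in knockout 3, and the Chil1-led one 295 in control 3, so the mix differed between libraries. Likewise the larger fibroblast-like cluster (1144 cells, led by Cxcl5) had 0 markers of its class and 1 of pericytes (Acta2) among its leading genes. The larger tendon-like cluster (2430 cells, led by Ccn3) had 4 detected markers of its class but 0 among its leading genes. A chondrocyte-like cluster of 621 cells held the hypertrophic markers Col10a1 and Ihh among its 10 leading genes, beside 5 of its own class. Of these cells 230 were in control 1 and 179 in knockout 1. With a median of 865 UMIs, few entered the cycling shares, but all entered the members' share of UMIs and the summed counts. The osteoclast-like clusters contained many cells with the transcripts of division. The shares of the class were 48.2%, 27.8% and 26.9% in control and 39.1%, 44.8% and 34.3% in knockout libraries. Its smaller cluster (170 cells after doublet removal) was led by the osteoblast genes Bglap and Bglap2. Before the removal, 38.6% of the cells in that cluster had a high doublet score.

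The classes between these ends overlapped over libraries. Macrophage-like cells had 15.9% ± 8.71, dendritic-like cells 14.8% ± 12.4, neutrophil-like cells 14.7% ± 14.1, endothelial-like cells 13.9% ± 5.46 and T and NK-like cells 13.5% ± 11.7 (n = 6 each). Pericyte-like cells had 11.7% ± 6.17, fibroblast-like cells 10.2% ± 8.89, tendon-like cells 9.95% ± 4.93 and osteoblast-like cells 8.92% ± 1.4 (n = 6 each). Monocyte-like cells had 12.5% ± 10.2 (n = 5) and B-like cells 11.6% ± 4.48 (n = 2). Neighbouring means in this order, from macrophage-like to osteoblast-like cells, lay within 1 SD of each other. Erythroid-like cells reached the least number of cells in only 2 libraries, with 22 of 22 cells cycling in control 2 and 5.06% of 158 cells in control 3.

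At equal depth the progenitor-like cells stayed first among the classes held by at least 4 libraries, at 31.5%, and osteoclast-like cells had 13.5%, Gdpd2-led stromal cells 7.93%, macrophage-like cells 4.97%, osteoblast-like cells 2.72% and chondrocyte-like cells 1.38%. In hypertrophic chondrocyte-like cells the thinned share was 0.0557%, below the 0.377% of the mature neutrophil-like cells, so at this depth no cycling could be told from background there. Median depths per library were 11993 to 43087 UMIs in hypertrophic chondrocyte-like, 6881.5 to 33329 in chondrocyte-like and 4928 to 19818.5 in progenitor-like cells. Doublets, which can carry division transcripts into another class, were removed by score, which took out 4.48 to 15.1% of cycling and 1.83 to 7.96% of other cells of a library.

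**Figure D3:**
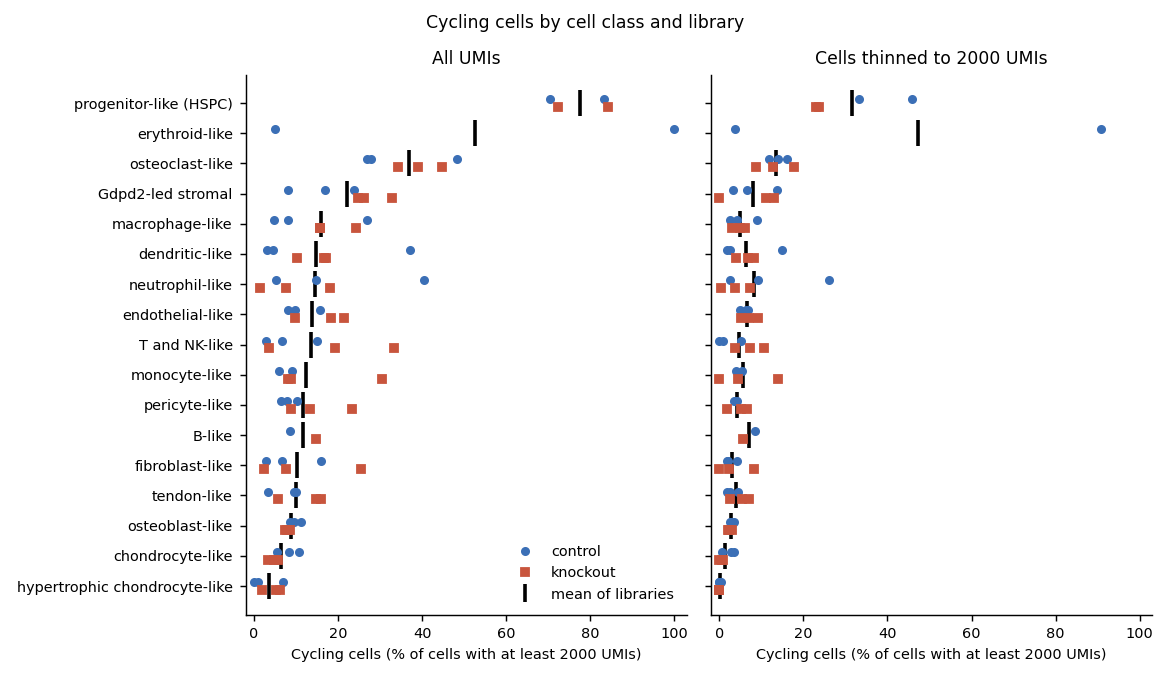
Share of cells with at least 2 UMIs of Top2a plus Mki67, in percent, by cell class; left at full depth and right after thinning each cell to 2000 UMIs. Dots are libraries with at least 20 cells of at least 2000 UMIs and bars are their means. Progenitor-like and osteoclast-like cells have the highest means among classes held by at least 4 libraries, and hypertrophic chondrocyte-like cells are lowest (3.58% at full depth, 0.0557% thinned).

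In a paired comparison within libraries, progenitor-like cells exceeded neutrophil-like cells by 57.3 percentage points ± 18.3 (SD, higher in 4 of 4 libraries, exact sign-flip permutation test, two-sided p = 0.125, the smallest that 4 libraries allow). Chondrocyte-like cells exceeded hypertrophic chondrocyte-like cells by 2.84 points ± 3.28 (higher in 5 of 6, exact p = 0.125, adjusted over 6 pairs 0.375). Endothelial-like against pericyte-like cells gave 2.17 points ± 4.42 (5 of 6, exact p = 0.281) and fibroblast-like against chondrocyte-like cells 3.79 points ± 8.79 (3 of 6, exact p = 0.406). For fibroblast-like against osteoblast-like and macrophage-like against monocyte-like cells the differences were 1.28 and 1.23 points (exact p = 0.75 and 0.812). None of the 6 pairs passed the threshold. The smallest p that the sign-flip test allows was 0.03125 with 6 libraries, 0.0625 with 5 and 0.125 with 4. After adjustment over the 6 pairs, a pair alone could not pass even at its smallest p.

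Within several classes the clusters differed more than the classes did. These clusters were picked with their shares known and are given as a description. Neutrophil-like cells led by Ngp, Camp and Ltf, genes of the granules made by immature neutrophils, had 24.6%, 57%, 25.9% and 10.2% in control 2, control 3, knockout 2 and knockout 3, where Il1b-led cells had 0%, 1.15%, 0.508% and 2.42%. Endothelial-like cells led by Kdr, a VEGF receptor of endothelial cells, had 17.8% on average. The Selp-led cluster of a venous gene had 6.47% and the Gja4-led cluster of an arterial gene 7.58%. The Kdr-led cells were higher in 6 of 6 libraries both times. Osteoblast-like cells led by Bglap had 11% and those led by the osteocyte gene Dmp1 2.6% (higher in 5 of 5 libraries), and thinned to equal depth 3.74% and 0%. In chondrocyte-like cells the Sfrp5-led cluster had 6.95% and the Epyc-led one 5.76% (higher in 3 of 5 libraries), and thinned 1.9% and 0.991% (higher in 4 of 5). The members made up 0.0533% of UMIs in the Sfrp5-led and 0.0318% in the Epyc-led cluster. In hypertrophic chondrocyte-like cells the Ihh-led cluster had 5.32% and the Chil1-led one 3.73% (higher in 2 of 4 libraries), and both had 0% after thinning.

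The classes were next compared gene by gene. Among the classes held by all 6 libraries, the highest mean CPM was in osteoclast-like cells for 27 of the 40 members, in endothelial-like and in T and NK-like cells for 4 each, and in 4 other classes for the remaining 5. For Mki67 the osteoclast-like mean was 172 CPM ± 40.6 (SD, n = 6), against 30.8 ± 11 in osteoblast-like, 22.7 ± 19.2 in chondrocyte-like and 4.26 ± 2.18 in hypertrophic chondrocyte-like cells. In progenitor-like cells, which 4 libraries held, Mki67 was at 394 and 231 CPM in control 2 and 3 and at 136 and 138 CPM in knockout 2 and 3. Hypertrophic chondrocyte-like cells had the lowest mean for 23 of 23 G2/M members but only for 8 of 17 S members. For another 8 S members the lowest class was chondrocyte-like and for 1 it was osteoblast-like.

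The distance between the highest and the lowest class was larger for mitotic than for S-phase genes. Its median was 19.1-fold over the G2/M members, from 10.7-fold for Cdk1 to 48.9-fold for Bub1, a checkpoint kinase. Over the S members it was 8.25-fold, from 3.23-fold for Mcm7 to 25.9-fold for Pclaf. Pcna was at 150 CPM ± 28.3 in osteoclast-like and still at 50.8 ± 10.3 in hypertrophic chondrocyte-like cells (SD, n = 6), where Prc1 was at 4.62 ± 0.606.

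**Figure D4:**
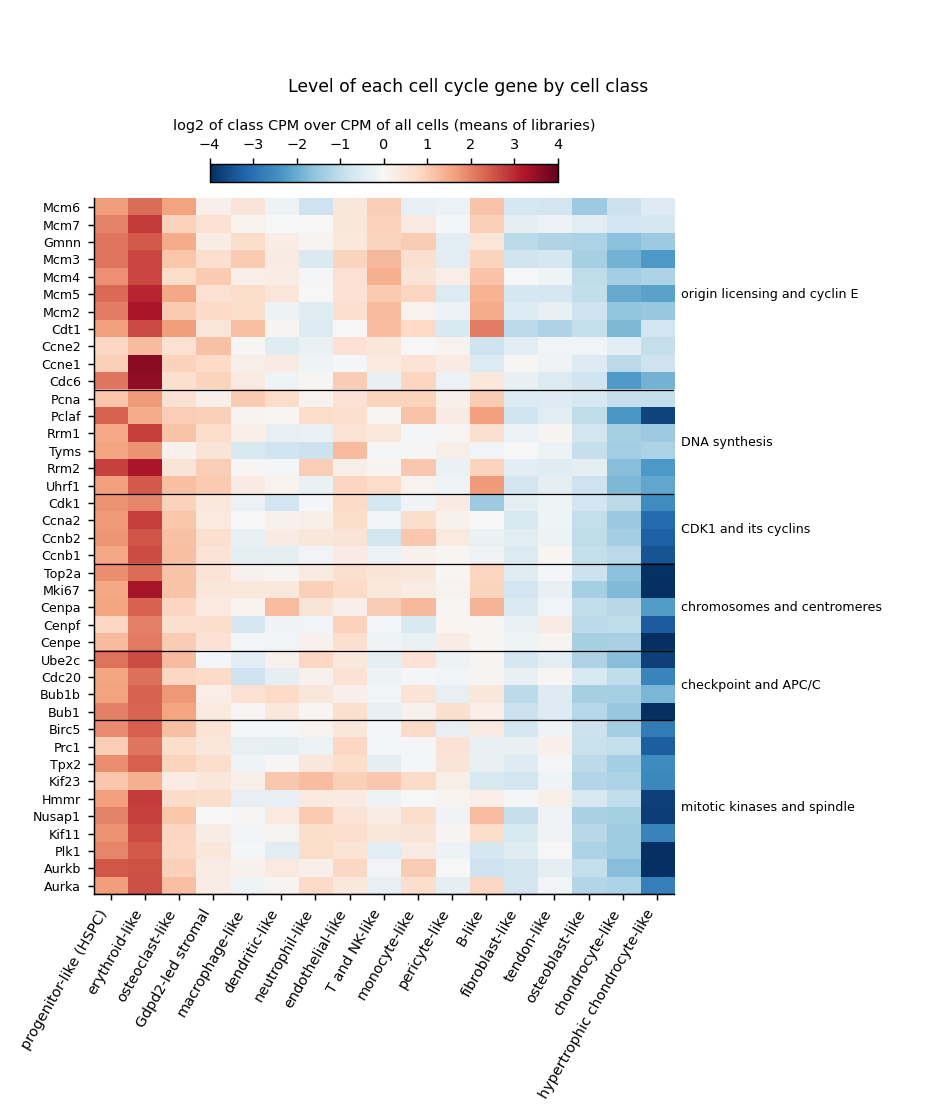
Mean CPM of each of the 40 members in each cell class relative to its CPM over all cells (log2, colours end at −4 and 4). The G2/M rows are strongly below the all-cell level in hypertrophic chondrocyte-like cells, while S rows such as Pcna and Mcm6 lie closer to it.

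This showed in the balance of S and G2/M transcripts. S members gave 40.4% of all member UMIs over all cells (range 37.3 to 42.6%, 6 libraries), but 71% in hypertrophic chondrocyte-like cells (66.2 to 75.3%), which did not overlap with the all-cell range. It did overlap with the ranges of osteoblast-like (mean 45.6%, 30.8 to 69.8%) and monocyte-like cells (mean 45.3%, 31.6 to 70.1%). Chondrocyte-like cells had 47.4% (29.6 to 65%), macrophage-like cells 51% (46.2 to 58.2%), tendon-like cells 37.1% and neutrophil-like cells 36.6%. In the cycling cells alone the S share was 31.9% over all classes and 21.7% in chondrocyte-like cells (n = 5 libraries), which the choice of Top2a and Mki67, both G2/M members, favours. The few cycling hypertrophic chondrocyte-like cells had 63.8% (n = 3), beside a member share of 0.117% of their UMIs against 0.386% in cycling chondrocyte-like cells.

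Hypertrophic chondrocyte-like cells were then compared with chondrocyte-like cells in one model with the library as a block (edgeR quasi-likelihood test with Benjamini-Hochberg adjustment over 14518 genes). Of the 40 members 16 were lower and 0 higher, beside 12.3% of all genes that were lower. All 16 were among the 23 G2/M members and none among the 17 S members. The median log2 difference was −1.87 over the G2/M and −0.08 over the S members, against 0.03 over all genes. The largest changes were of cyclin B1 (Ccnb1, log2 difference −2.44 ± 0.424 (SE), edgeR adjusted p = 0.0021), the kinetochore proteins Cenpf (−2.33 ± 0.494) and Cenpe (−2.26 ± 0.448), Hmmr (−2.24 ± 0.464), Mki67 (−2.16 ± 0.391) and Ccnb2 (−2.16 ± 0.493), with edgeR adjusted p up to 0.00911 among these 6. The count was 10 with replicates 1 and 2 alone, 26 without a filter on low counts and 17 without knockout 3, each time with none higher. The share of all genes was not counted in these alternative fits. With the Chil1-led cluster alone as the hypertrophic class, a choice made after seeing the data, 12 were lower (all G2/M) and 0 higher in 6 libraries. In that fit 10.1% of all genes were lower. With the Ihh-led cluster alone, which 4 libraries held, 17 were lower, beside 19.3% of all genes. Of these 17, 15 were G2/M members and 2 the S members Pclaf and Rrm2, and Mcm6 was higher. The classes come from other genes of the same cells, so the comparison tests no condition. In summed counts, fewer cycling cells and fewer UMIs per cycling cell cannot be told apart.

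Mki67 was at 21.1, 36.2 and 54.3 CPM in chondrocyte-like cells of control libraries 1 to 3, where hypertrophic chondrocyte-like cells had 3.32, 1.99 and 4.27 CPM. In knockout libraries 1 to 3 the same cells had 12, 4.07 and 8.41 CPM against 3.09, 8.28 and 4.57 CPM. Mki67 was thus lower in hypertrophic cells in 5 of 6 libraries, knockout 2, with 28 chondrocyte-like cells, being the exception. The remaining genes that fell were Plk1, Prc1, Top2a, Kif11, Ube2c, Nusap1, Ccna2, Cdk1, Cdc20 and Kif23, with log2 differences from −2.07 (Plk1, the Polo-like kinase) to −1.23 (Kif23, a midzone motor). Among the S members, Pcna had −0.06 ± 0.111, Mcm6 0.16 ± 0.209, Mcm7 0.18 ± 0.139 and Tyms, which makes thymidylate, 0.17 ± 0.163 (edgeR adjusted p from 0.382 to 0.728). Pclaf was at −1.43 ± 0.496 with an adjusted p of 0.0585 in edgeR. Of 79 further genes of the cell cycle that were tested, 7 were lower and 3 higher. Among all 14518 genes 12.3% were lower and 1618 were higher.

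**Figure D5:**
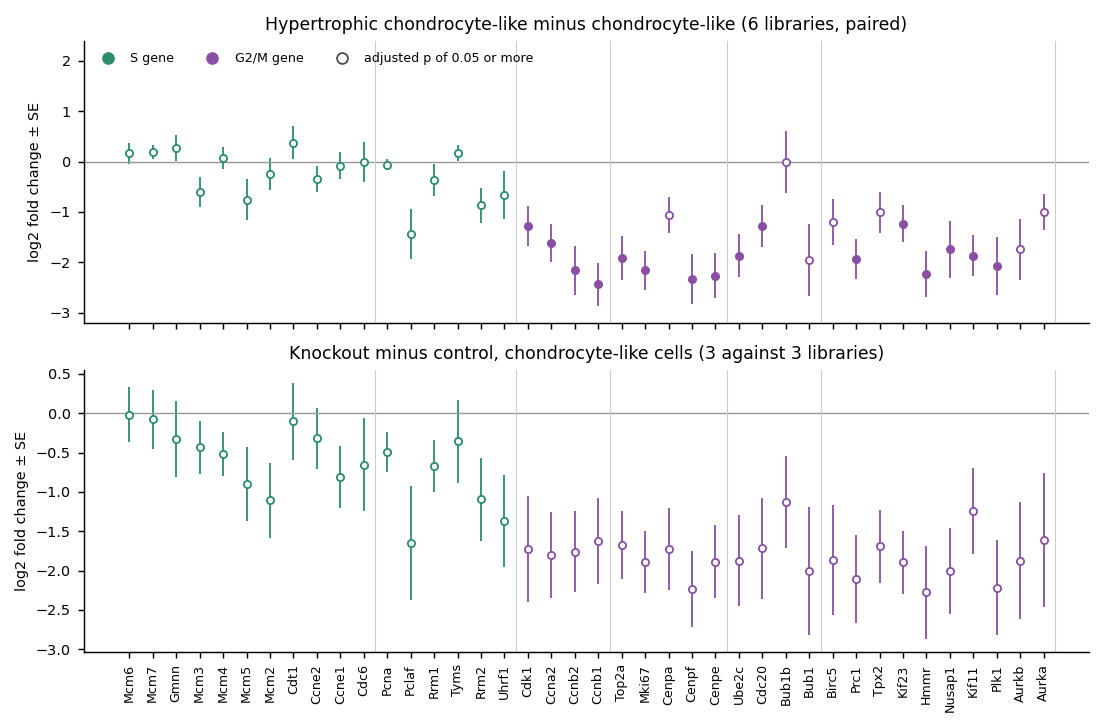
Log2 difference of each member in edgeR with its SE, for hypertrophic chondrocyte-like against chondrocyte-like cells and for knockout against control within chondrocyte-like cells. Filled points have an adjusted p under 0.05: 16 G2/M members in the first comparison and none in the second.

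Osteoblast-like cells differed from fibroblast-like cells in 1 member, the helicase subunit Mcm4 (log2 difference −0.78 ± 0.189, lower in 6 of 6 libraries, edgeR adjusted p = 0.00865), beside 19.2% of all genes that were lower. Macrophage-like cells were lower than monocyte-like cells in 10 members and higher in none, beside 14% of all genes that were lower. These were Ccnb2 (−1.33 ± 0.292, edgeR adjusted p = 0.00351), Ube2c, the Aurora kinases Aurka and Aurkb, the spindle motors Kif11 and Kif23, Nusap1, Cenpa and the S members Pclaf and Rrm2. Without knockout 3, whose monocyte-like cells had the highest cycling share (30.6%, next 9.12%), 4 members passed, 3 of them higher in macrophage-like cells. The count was 1 without control 2, 2 without control 3, 16 without knockout 1 and 17 without knockout 2. The share of all genes was not counted in the fits without a library, so these counts have no background beside them.

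The question of the knockout was whether division differed between the genotypes. Over all cells the cycling share was 11.7% ± 2.01 in control and 14.9% ± 2.53 in knockout libraries (SD, n = 3 each, two-sided exact permutation test, p = 0.3), where 3 against 3 libraries cannot go below 0.1. With equal weight to each class it was 12.6% against 15.5% (exact permutation p = 0.4), and after thinning 5.29% against 5.12%, a difference of −0.17 points. The means were higher in knockout libraries in 11 of the 15 classes compared, and in 8 of them after thinning, and the lowest p adjusted over the 15 classes was 0.6. Without knockout 3 the difference over all cells was 4.46 percentage points in place of 3.18, in chondrocyte-like cells −2.87 in place of −3.5 and in Gdpd2-led stromal cells 9.19 in place of 11.6. With these group sizes no class could pass the threshold for the cycling share or for the members' share of UMIs.

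In Gdpd2-led stromal cells the shares were 23.8%, 8.2% and 16.8% in control and 26.1%, 24.8% and 32.8% in knockout libraries, without overlap (exact permutation p = 0.1, adjusted 0.6). After thinning, the values were 13.8%, 3.28% and 6.56% against 0%, 11% and 13%, which overlapped. In pericyte-like cells the members made up 0.076%, 0.0846% and 0.0989% of UMIs in control and 0.15%, 0.13% and 0.11% in knockout libraries, also without overlap (exact permutation p = 0.1, adjusted 0.5). The difference was 0.0432 points, and 0.0533 without knockout 3.

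Chondrocyte-like cells, in which the promoter of the Cre is known to be active, had a lower mean in the knockout group. Their cycling share was 10.7%, 5.38% and 8.38% in control and 5.83%, 4.76% and 3.4% in knockout libraries, so that the groups overlapped (exact permutation p = 0.2, adjusted 0.6). With a minimum of 1 UMI in place of 2 the shares were 30.8%, 15.2% and 17.3% against 33.7%, 33.3% and 15.6%, a difference of 6.42 points in place of −3.5. Knockout 2 gave 1 cycling cell of 21 (95% Wilson interval 0.846 to 22.7%). The members' share of UMIs was 0.0478%, 0.0547% and 0.0856% against 0.0418%, 0.0305% and 0.0342%, without overlap (exact permutation p = 0.1, adjusted 0.5). Without integration of the libraries the difference in the members' share was 0.00347 points and at a finer clustering 0.0511 points, both with the sign reversed. Without integration the class also held clusters of 2118 and 1263 cells of low depth (medians 717 and 833 UMIs). At the finer clustering it also held a cluster of 3069 cells (median 762 UMIs). The part of these cells in the reversal was not tested. In the same order, the cycling share, taken from cells of at least 2000 UMIs, differed by −2.12 and −2.74 points. Depth also differed. The Sfrp5-led cluster had a median of 37504 UMIs in control 1 and 41815 in knockout 1, and at most 17925.5 in the others. Thinned to 2000 UMIs, its cycling share was 1.02%, 2.49% and 3.99% in control and 1.14%, 0% (of 7 cells) and 0.874% in knockout libraries. In the Epyc-led cluster it was 0%, 3.08% and 1.23% against 0%, 0% (of 12 cells) and 0.644%. In both, control 1 was the highest control library at full depth and the lowest after thinning.

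Gene by gene, edgeR called 0 members between genotypes over all cells and in each of 10 classes, beside 0% of all genes (0.0117% in progenitor-like cells). DESeq2 also called 0 members, beside 173 of 11974 genes in progenitor-like cells, 17 of 26347 over all cells and at most 5 in any other class. Members with an unadjusted p under 0.05 in edgeR numbered 24 in chondrocyte-like cells (2.33% of all genes), 10 in progenitor-like (15.4%), 3 in endothelial-like (4.69%) and 2 in neutrophil-like cells (3.25%). There was 1 each in hypertrophic chondrocyte-like (1.31% of all genes), pericyte-like (3.92%) and macrophage-like cells (1.45%), and 0 in osteoblast-like (3.46%), fibroblast-like (1.48%) and monocyte-like cells (1.68%) and over all cells (1.52%). In chondrocyte-like cells no gene passed among 14348, with an adjusted p of 1 for every member. All 40 fitted differences were negative there, with a median of −1.64 (−0.52 over the S and −1.87 over the G2/M members, −0.02 over all genes). There 17 members did not overlap between groups and were lower in the knockout, beside 4.51% of all genes. Knockout 2 had 28 cells in this class, and many of these members stood at 0 to 4.11 CPM there. The 40 members move together in the same few cycling cells and so are not separate observations.

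Mki67 was at 20.1, 36.4 and 52.5 CPM (TMM-scaled) in control and 11.6, 4.11 and 9.47 CPM in knockout chondrocyte-like cells (log2 difference −1.89 ± 0.399, edgeR unadjusted p = 0.000819). Prc1 was at 16, 43.3 and 59.8 against 10.1, 0 and 10.6 CPM (−2.11 ± 0.558, edgeR unadjusted p = 0.00367). The groups did not overlap for either gene, and control 1 lay closest to the knockout libraries. Knockout 2 had 28 of these cells, and 2.06 CPM (Cenpf among others) was its smallest value above 0. Its values thus rest on very few UMIs. Cdk1 overlapped, with 7.65, 33.2 and 44 against 5.64, 0 and 13.3 CPM (−1.73 ± 0.675). Pcna was at 48.7, 62.5 and 70.2 against 39, 45.3 and 45.5 CPM (−0.49 ± 0.255), and Mcm6 at 32.4, 20.1 and 15.8 against 24.3, 10.3 and 26.8 CPM (−0.02 ± 0.352).

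The median of the 40 differences in chondrocyte-like cells was −0.87 without control 3, −0.88 without integration and −0.13 at the finer clustering, and −2.08 without control 1. Without integration and at the finer clustering the class also held the clusters of low depth given above. Without a filter on low counts 19 members passed, among 102 of 28780 genes, and 0 members passed in the other 15 alternatives, DESeq2 included. Without knockout 3, which stands apart in sex-linked genes, the median was −1.77. Of 78 further cell cycle genes 71 had negative and 7 positive differences (median −0.71), and 0 passed. On counts simulated with the sizes of these libraries, edgeR recovered 5% of the genes set to change by 1 log2 unit, 74.6% at 2 units and 95.3% at 3 units. Of the unchanged genes 12 were called as well. The changed genes were drawn at random from all 14348 and varied independently. The percentages therefore do not say how often a change in the members would be found.

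The direction varied among the other classes. In neutrophil-like cells 40 of 40 differences were negative as well (median −0.80), of which 6 did not overlap and were lower, beside 4.12% of all genes. Progenitor-like cells (2 against 2 libraries) had 32 of 40 negative, with a median of −0.32, and 16 that did not overlap and were lower, beside 24.6% of all genes. Their lowest adjusted p among members was 0.141 in edgeR, for Uhrf1, which carries DNA methylation through replication. In hypertrophic chondrocyte-like cells 26 members had enough counts to be tested, and 19 of the differences were positive (median 0.48), in a class of which the Chil1-led cluster gave 295 of 313 cells in control 3 and 101 of 551 in knockout 3. The part of this mix was not tested. The medians were 0.38 in endothelial-like cells (38 of 40 positive), 0.47 in pericyte-like cells (39 of 40 positive), 0.23 in macrophage-like, 0.26 in monocyte-like and −0.17 in osteoblast-like cells and 0.22 over all cells (33 of 40 positive). The last 4 medians changed sign under at least 1 alternative, while that of endothelial-like cells stayed between 0.11 and 0.60 and that of pericyte-like cells between 0.24 and 0.62. In fibroblast-like cells the median was 0.11 and also changed sign, from −0.45 to 1.12 over the alternatives, with 0.46 without knockout 3. Without knockout 3 the medians were 0.11 in endothelial-like, 0.24 in pericyte-like, 0.18 in macrophage-like, −0.53 in monocyte-like and −0.45 in osteoblast-like cells and 0.25 over all cells. They were then −0.72 in neutrophil-like, −0.49 in progenitor-like and 0.48 in hypertrophic chondrocyte-like cells. Whether the difference in chondrocyte-like cells differs from that in other classes was not tested.

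Knl1, a kinetochore scaffold, led the genes whose levels over the classes of a library were most like those of the summed G2/M members. Its median Spearman correlation was 0.943 over the 6 libraries (range 0.899 to 0.963). It was followed by the mitotic motor Kif15 (0.923), the condensin subunit Smc2 (0.912) and the replication-dependent histone gene Hist1h2ap (0.91). Stmn1, which destabilises microtubules, came next (0.901). Each correlation runs over the 13 to 17 classes of 1 library, which share its cells and depth, and is given as a description.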

How the data were processed

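Calluses of 3 control and 3 knockout mice at 14 dpf were measured by 10x 3′ v3 single-cell RNA sequencing. The authors aligned the reads to GRCm38 and deposited raw UMI counts per gene and cell barcode, which come, per the labels, from Cell Ranger 6.1.2 and for both replicate 1 libraries from version 6.1.1. Replicate 3 was counted against another gene list, and libraries were joined by gene identifier. The sources do not agree on the number of mice, so p-values measure the spread between these libraries.

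Barcodes under 500 UMIs, under 200 genes or over 20% mitochondrial UMIs were dropped. Scores from Scrublet in scanpy 1.11.5 removed the highest 0.8% of a library per 1000 cells. Cells were integrated with RPCA in Seurat 5.3.0 (R 4.3.3) and clustered with leidenalg 0.10.2 at a resolution of 0.8. The 40 members, 80 other cell cycle genes and 360 genes that correlated with the members (over 0.2) were left out of the variable genes. Clusters were named "-like" from marker lists, where at least 3 markers passed. Names are rebuilt and may differ from the study's.

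Per class, library means were compared by exact permutation tests (at least 20 cells per library), and summed counts with edgeR 4.0.16 (filterByExpr, TMM, quasi-likelihood test, Benjamini-Hochberg over all genes tested, threshold 0.05). DESeq2 1.42.0 was an alternative. The edgeR test was tested on simulated data. CPM values scale UMIs by the total of the class or library. Intervals cover counting error only. Promoter sequences are from RefSeq on GRCm38.p6 and gene positions from GENCODE M21. The members and all lists were chosen with earlier results of these data known. Described with the value in every library were the 2 members of highest mean CPM in each of 6 role groups, with Mki67 and Top2a, and any member with an adjusted p under 0.05 between genotypes (there was none).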

Additional observations from a re-analysis of the deposited data

Results flagged for a closer look

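Of 38 sets of 4 to 6 libraries examined, 3 held a library far from the others by Dixon's test, and chance gives about 1 in 20. In monocyte-like cells knockout 3 had a cycling share of 30.6%, where the next of the 5 libraries had 9.12%. In hypertrophic chondrocyte-like cells of knockout 2 the members made up 0.0399% of UMIs, where the next of the 6 libraries had 0.0292%. The difference in cycling share between progenitor-like and neutrophil-like cells was 30 percentage points in control 3, where the next of the 4 libraries had 64.7. Outside the comparisons, Xist stood at 578 CPM in knockout 3 and at no more than 0.17 CPM in the other libraries.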

How the results depend on the processing

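By genotype, 3 against 3 libraries cannot give a p below 0.1 and 2 against 2 none below 0.333, so that none of the 293 alternatives for the cycling share and 194 for the member share could pass the threshold, which says nothing of stability. Between classes 0 of 101 alternatives passed. With 5 libraries or fewer the sign-flip test cannot give a p below 0.0625, so comparisons without 1 library could not pass. After adjustment a pair alone could not pass with 6 libraries either, so this too says nothing of stability. The sign, knockout minus control in percentage points, turned as follows. Thinned to 2000 UMIs, the cycling share gave −0.17 with equal weight to each class, −0.111 in hypertrophic chondrocyte-like, −0.451 in macrophage-like, −0.881 in osteoclast-like, −16.1 in progenitor-like and 0.0124 in dendritic-like cells. A minimum of 1 UMI gave 6.42 in chondrocyte-like, 2.78 in osteoblast-like and 6.22 in dendritic-like cells. Without integration it was −0.201 in fibroblast-like, 12.5 in dendritic-like and −0.432 in progenitor-like cells. Dendritic-like cells gave 9.78 when called from 21 other G2/M members and 2.78 at a resolution of 0.4. Progenitor-like cells gave −1.46 with 3 UMIs, −11.6 in cells of at least 5000 UMIs and −3.06 with stricter filters. Leaving out 1 library gave −3.43 to 8.05 in fibroblast-like and −6.05 to 10.9 in dendritic-like cells.

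The member share turned without integration to 0.00347 in chondrocyte-like, 0.00262 in osteoblast-like and −0.00429 in fibroblast-like cells, at a resolution of 1.2 to 0.0511 in chondrocyte-like cells, and with replicates 1 and 2 alone to −0.00645 in macrophage-like and −0.0125 in dendritic-like cells. Without integration and at a resolution of 1.2 the chondrocyte-like class also held clusters of low depth. Leaving out 1 library gave −0.00266 to 0.0209 over all cells, −0.0215 to 0.0246 in fibroblast-like, −0.00316 to 0.0312 in macrophage-like, −0.0273 to 0.0697 in monocyte-like, −0.00142 to 0.043 in dendritic-like and −0.0437 to 0.0148 in osteoclast-like cells. Between classes, macrophage-like minus monocyte-like cells gave −0.233 with 3 UMIs, −1.38 thinned, −7.23 in cells of at least 5000 UMIs and −2.56 to 5.24 without 1 library. Endothelial-like minus pericyte-like cells gave −3.13 from the 21 other members. Fibroblast-like minus osteoblast-like cells gave −0.706 without integration and −1.8 to 2.86 without 1 library.

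By edgeR, 164 of 167 alternatives for the genotype called 0 members. Without a low-count filter 19 were called in chondrocyte-like (102 of 28780 genes) and 3 in progenitor-like cells (867 of 18917 genes), and leaving out 1 library gave 0 to 6 in progenitor-like cells (6 without knockout 3, among 1022 of 10022 genes, where the lone knockout library is assumed to vary like the controls). Hypertrophic against chondrocyte-like cells gave 10 with replicates 1 and 2 alone and 26 without the filter. Osteoblast-like against fibroblast-like cells gave 2 with replicates 1 and 2 alone, 5 without the filter and 1 to 2 without 1 library. Macrophage-like against monocyte-like cells gave 1, which was higher, with replicates 1 and 2 alone, 17 without the filter, 6 by DESeq2 and 1 to 17 without 1 library. The share of all genes was not counted in these alternatives between classes. The cause of these changes was not tested, beyond fewer samples or more genes tested. As to pairing, same-numbered libraries deviated together by correlations of 0.452, 0.264 and −0.0385 over all cells, so the numbers were not taken to pair them. With the replicate block, the cycling share over all cells still differed by 3.18 points and edgeR called 0 members in every class.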
